A study of Mus musculus with 3 samples.

Results

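The genes of cholesterol and fatty acid synthesis were followed in C2C12 cells, a mouse myoblast line, after transfection with DGKzeta, after transfection with EGFP and without treatment. The set was given as 34 gene symbols, listed as enzymes, regulators and sterol carriers of these pathways. It was chosen with earlier results of these data known. Of these, 30 had at least 1 probe set among the 12393 genes named on the array, with 64 probe sets in all. Acat2, Insig1, Acsl1 and Acsl3 had no named probe set, so that no signal is given for them and they enter the promoter counts alone.

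DGKzeta is diacylglycerol kinase zeta, an enzyme that turns diacylglycerol into phosphatidic acid, and EGFP is a fluorescent protein that serves as the transfection control. The study title places the kinase in the nucleus and ties it to cell cycle arrest through BTG2 and cyclin D1. Each of the 3 groups had 1 array of total RNA, and all samples carry a time label of 12 h. Cells were grown in medium with 10% serum, plated for 18 h and then transfected with FuGene. The labels give neither the share of cells that took up DNA, nor the promoter or sequence of the constructs, nor whether untreated cells received FuGene.

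With 1 array per group, differences have no check by replicates, and neither a test nor an SD between cultures can be given. The values are MAS5 signals, which combine the probes of a probe set into 1 linear intensity. A probe set was called measured on an array at a signal of at least 107, the median of all values on the 3 arrays. Values under this floor were set to it before log2 ratios were taken, which makes a ratio a bound where 1 of its arrays was under the floor. The brightest probe set of each of the 30 genes was measured on all 3 arrays, and so were 51 of the 64 probe sets. A further 3, of Lss, Scd2 and Acsl4, were measured on 2 arrays. The 10 measured on none were 2 each of Fdft1 and Acly and 1 each of Fdps, Lss, Cyp51, Hsd17b7, Sc5d and Acsl4. The scatter of a single probe set, from the 2 brightest probe sets of 2251 genes, was 0.40 on the log2 scale for DGKzeta over EGFP, 0.50 for DGKzeta over untreated and 0.27 for EGFP over untreated. It covers different probes on 1 RNA extract and not the spread between cultures.

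The arrays had medians of 92.5 in DGKzeta, 119 in EGFP and 111 in untreated cells at nearly equal trimmed means. The transfected gene, Dgkz, had signals of 13466 in DGKzeta, 1053 in EGFP and 1500.1 in untreated cells by its brighter probe set. Of 9 myoblast markers with a probe set, 7 were measured on every array, among them Myf5, Des and Chrna1, while Myod1 and Pax7 were under the floor on all 3. The 6 markers of differentiated muscle were all under the floor. Among adipocyte markers, Pparg and Lpl were measured on all 3 arrays, and the other 4 with a probe set (Cebpa, Fabp4, Adipoq and Cidec) were under the floor. Of 9 macrophage and endothelial markers, Csf1r in untreated cells (121) was the 1 value at or above the floor. In the 3' to 5' signal ratio of the control probe sets, a sign of labelled product length, Actb stood at 2.55 in DGKzeta, 1.43 in EGFP and 1.27 in untreated cells. The Gapdh ratio was 0.931 in DGKzeta, 0.902 in EGFP and 0.841 in untreated cells. The part of this difference in the results was not tested.

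Cells build cholesterol from acetyl-CoA through mevalonate and squalene, and fatty acids from the same precursor through fatty acid synthase, desaturases and elongases. Both routes are controlled by the sterol regulatory element binding proteins (SREBPs), which are held in the endoplasmic reticulum. When sterol is low, the escort protein Scap carries them to the Golgi, where they are cut to release transcription factors, whereas Insig proteins keep the complex in place when sterol is plentiful. Proliferating myoblasts use these pathways for membrane growth.

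Counts past a fixed fold were small in all 3 comparisons. By brightest probe sets, 1 of 30 genes was at least 1.5-fold higher in DGKzeta than in EGFP cells (Acsl4), where 3.51% of 6926 genes were, and 6 were lower (Fads2, Srebf2, Scap, Stard4, Dhcr7 and Elovl5), where 11.6% were. At 2-fold, 0 were higher, where 0.347% of all genes were, and 2 were lower (Fads2 and Srebf2), where 2.84% were. Just inside 1.5-fold lower was Elovl5 at a log2 ratio of -0.61 and just outside Mvd at -0.57.

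In DGKzeta over untreated, 4 of 30 were at least 1.5-fold higher (Scd1, Cyp51, Acsl4 and Fdft1), against 7.09% of 6866 genes. As many were lower (Fads2, Srebf2, Scap and Stard4), against 9.93% of genes. At 2-fold 0 were higher and 1 was lower (Fads2), against 1.34% and 2.80% of genes, with Srebf2, 1.99-fold lower, just short of it. In EGFP over untreated 3 were at least 1.5-fold higher (Mvd, Dhcr7 and Cyp51), against 4.13% of 6932 genes, and 0 were lower, against 1.51%. None reached 2-fold, against 0.361% of genes higher and 0.303% lower.

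Among the SREBP regulators and Stard4, the genes Srebf2, Scap and Stard4 were at least 1.5-fold lower in DGKzeta than in EGFP cells, Srebf1 was lower by less and Insig2 was higher. EGFP and untreated cells had similar signals in all 5 by their brightest probe sets. Srebf2, which encodes the SREBP that mainly drives cholesterol synthesis, had signals of 383 in DGKzeta, 776 in EGFP and 763 in untreated cells, which is 2.03-fold lower in DGKzeta than in EGFP cells and 1.99-fold lower than in untreated cells. Its other probe set had 248 in DGKzeta, 538 in EGFP and 394 in untreated cells. Both probe sets placed the DGKzeta array below both others, with log2 ratios to EGFP of -1.02 and -1.12. Scap, the escort protein, had signals of 433 in DGKzeta, 795 in EGFP and 799 in untreated cells, log2 ratios of -0.88 to EGFP and -0.89 to untreated cells from its 1 probe set. Stard4, a soluble sterol carrier, had signals of 539 in DGKzeta, 949.7 in EGFP and 930.0 in untreated cells. Its dimmer probe set had 359.7 in DGKzeta, 446 in EGFP and 612 in untreated cells, so that DGKzeta cells were lowest by both, but with a log2 ratio to EGFP of -0.31 in place of -0.82.

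Srebf1, the gene of the SREBPs that mainly drive fatty acid synthesis, was lower by less. Its signals were 402 in DGKzeta, 555 in EGFP and 559.9 in untreated cells, log2 ratios of -0.47 and -0.48, and it has 1 probe set. The ratio to EGFP was just outside the scatter of a single probe set and that to untreated cells just inside it. Insig2, which retains the Scap complex, was higher in DGKzeta cells. Its brightest probe set had 1395 in DGKzeta, 1066 in EGFP and 1131 in untreated cells, the next 786 in DGKzeta, 611 in EGFP and 665 in untreated cells and the dimmest 738 in DGKzeta, 456 in EGFP and 352 in untreated cells. All 3 were highest in DGKzeta cells, with log2 ratios to EGFP of 0.39, 0.36 and 0.69, the first pair of them inside the scatter of a single probe set.

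Over the 5 genes of this group the median log2 ratio was -0.82 for DGKzeta over EGFP, -0.79 for DGKzeta over untreated and -0.01 for EGFP over untreated. The first pair of these medians are the values of Stard4, which is a sterol carrier and no SREBP regulator. Over all measured genes the median was -0.02, -0.02 and 0.02 in the same 3 comparisons. The DGKzeta array has the lower overall median, and scaling the arrays to the same median over all named probe sets (median scaling) moves the median of all genes to 0.33 for DGKzeta over EGFP and 0.24 for DGKzeta over untreated. By their brightest probe sets, Srebf2, Scap, Stard4 and Srebf1 were below 0 in both comparisons with that scaling, with log2 ratios to EGFP of -0.66, -0.51, -0.45 and -0.10. The dimmer Stard4 probe set turned to 0.05 to EGFP with it, and stayed below 0 to untreated cells at -0.50. Both comparisons share the DGKzeta array and are not independent. In RNA of a whole culture, fewer cells of a type and less RNA per cell cannot be told apart.

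**Figure D1:**
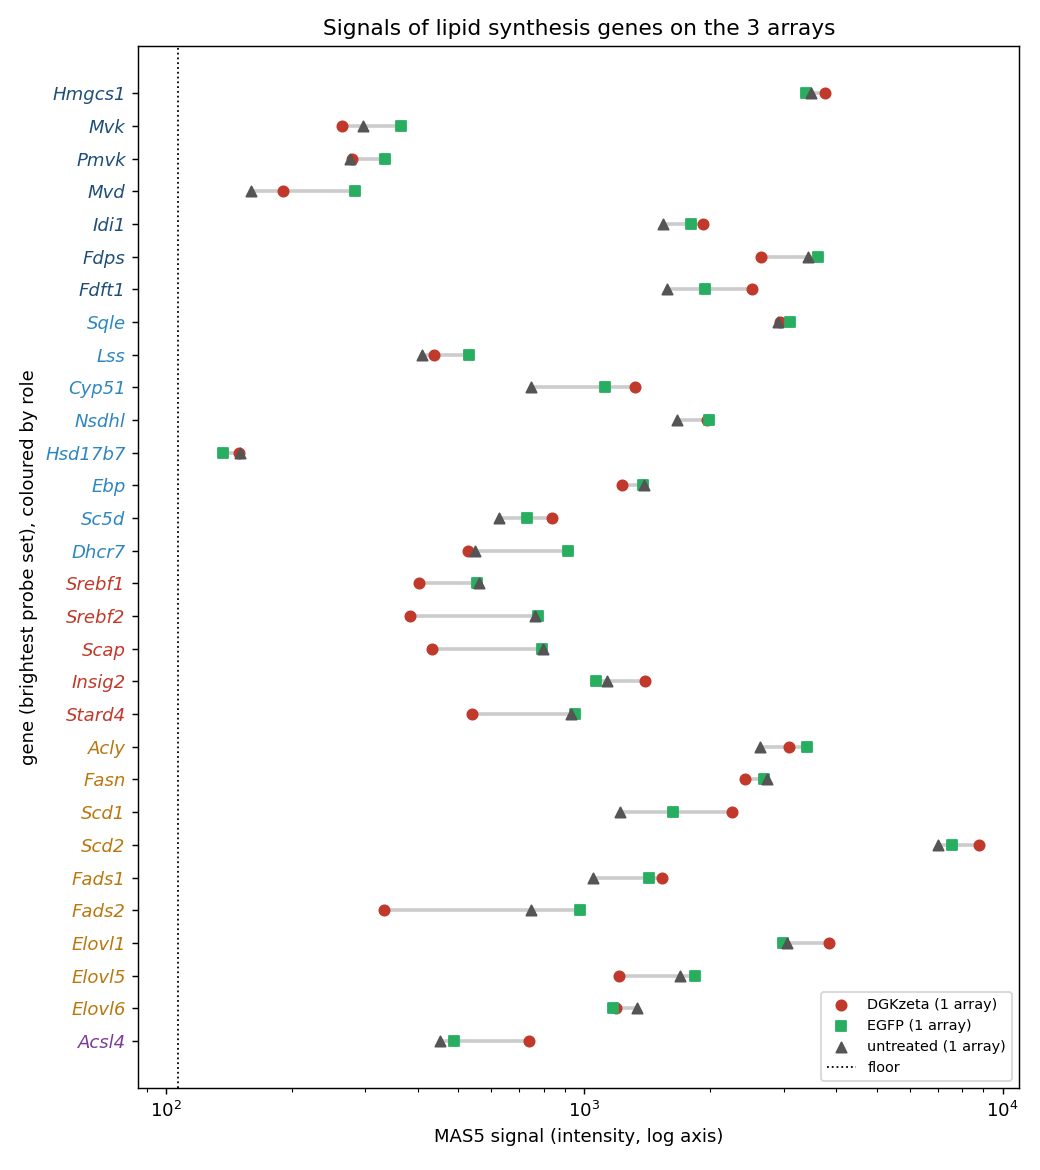
MAS5 signal (log axis) of the brightest probe set of each of the 30 genes on the DGKzeta (circle), EGFP (square) and untreated (triangle) arrays, 1 array each, with gene names in dark blue for mevalonate to squalene, light blue for squalene to cholesterol, red for SREBP regulators and Stard4, brown for fatty acid synthesis and purple for Acsl4. Srebf2, Scap and Stard4 have EGFP and untreated points close together and the DGKzeta point to the left of both, at 383, 433 and 539.

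The promoters of 27 of the 34 genes are in the RefSeq promoter table (GRCm38.p6), 37 promoters in all, since some genes have several starts. Printed here are 250 bases upstream of the start, 5′ to 3′ on the gene's strand, for Srebf2 and Fads2, the 2 genes that were at least 2-fold lower in DGKzeta than in EGFP cells, for Mvd and Cyp51, enzymes that were higher in EGFP than in untreated cells by their brightest probe sets, and for Hmgcs1, an SREBP target whose brightest probe set lay within the scatter in all 3 comparisons. Capitals mark the letters TCACCCCA (core of a sterol regulatory element), CCAAT (NF-Y box) and GGGCGG (Sp1 box), searched on both strands, so that their reverse complements are in capitals too.
Srebf2 (chr15:82147019-82147268, plus strand): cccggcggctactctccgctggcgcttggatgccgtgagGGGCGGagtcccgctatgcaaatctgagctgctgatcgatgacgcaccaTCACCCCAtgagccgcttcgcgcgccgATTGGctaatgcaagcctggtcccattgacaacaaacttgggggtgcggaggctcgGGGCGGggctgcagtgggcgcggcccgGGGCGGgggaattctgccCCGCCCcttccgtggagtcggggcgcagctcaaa
Fads2 (chr19:10101504-10101753, minus strand): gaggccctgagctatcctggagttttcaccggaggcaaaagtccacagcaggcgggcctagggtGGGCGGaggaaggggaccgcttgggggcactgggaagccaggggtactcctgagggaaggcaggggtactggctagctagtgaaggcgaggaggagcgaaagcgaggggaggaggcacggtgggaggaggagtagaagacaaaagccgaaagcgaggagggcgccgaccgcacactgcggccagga
Mvd (chr8:122443423-122443672, minus strand): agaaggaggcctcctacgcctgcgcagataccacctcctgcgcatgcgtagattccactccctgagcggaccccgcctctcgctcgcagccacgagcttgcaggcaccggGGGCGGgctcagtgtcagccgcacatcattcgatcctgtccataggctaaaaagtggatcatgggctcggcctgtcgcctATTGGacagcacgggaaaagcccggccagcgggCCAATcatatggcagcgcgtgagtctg
Cyp51 (chr5:4104698-4104947, minus strand): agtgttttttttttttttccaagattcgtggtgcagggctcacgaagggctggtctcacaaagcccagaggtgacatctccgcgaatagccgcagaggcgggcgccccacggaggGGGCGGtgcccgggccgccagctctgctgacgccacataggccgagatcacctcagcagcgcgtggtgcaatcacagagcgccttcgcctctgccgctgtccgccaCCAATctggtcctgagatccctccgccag
Hmgcs1 (chr13:119690101-119690350, plus strand): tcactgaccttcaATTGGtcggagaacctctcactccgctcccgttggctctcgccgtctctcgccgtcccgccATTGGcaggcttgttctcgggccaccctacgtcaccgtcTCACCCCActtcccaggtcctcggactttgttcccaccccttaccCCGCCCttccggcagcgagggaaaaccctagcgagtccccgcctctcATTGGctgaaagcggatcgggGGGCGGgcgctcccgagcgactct

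The sterol element letters were found in the windows of Srebf2, at 162 to 155 bases before the start, and of Hmgcs1, at 137 to 130 bases before it. Across all genes of the set they were in 3 of 37 promoters (8.11%), the last being of Acsl1, against 1.34% of the 32851 promoters in the table. The window of Srebf2 also held 1 NF-Y box and 4 Sp1 boxes, that of Hmgcs1 3 NF-Y boxes and 2 Sp1 boxes, and that of Fads2 1 Sp1 box. No marked letters overlapped in these 5 windows. CCAAT was found in 59.5% of the 37 promoters, against 33.8% of all promoters, and GGGCGG in 73.0%, against 32.7%. Several starts of a gene are counted separately, and the promoters of the whole table are not limited to genes measured here. Whether these shares are particular to the set was not tested. A match describes letters only and shows no binding. Only these exact letters were searched, so a window with no match is not shown to lack an element.

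The 15 enzymes of cholesterol synthesis in the set had no common direction in DGKzeta over EGFP. Most of them had a ratio above 0 to untreated cells, 10 of 15 in DGKzeta and 12 of 15 in EGFP cells. In DGKzeta over EGFP, 6 of the 15 had a ratio above 0, with a median of -0.08, where 47.4% of all genes were above 0. In DGKzeta over untreated the median was 0.10, where 48.3% of all genes were above 0. The number above 0 there was 12 by quantile normalization (median 0.21) and 12 with the arrays scaled over measured probe sets (0.20). It was 14 by median scaling (0.36). The median of all genes was -0.02 as deposited and moved to 0.05, 0.08 and 0.24 with these scalings, in the same order. The share of all genes above 0 with them is not given. The comparisons to untreated cells share 1 untreated array. Other genes listed under cholesterol synthesis, outside the set, were split in direction. Of these, 4 of 8 were above 0 in DGKzeta over untreated (median -0.01), namely Msmo1, Lbr, Nus1 and, as a bound, Tm7sf2. Acat1, Ggps1, Erg28 and Dhdds were below 0 there. In EGFP over untreated 3 of 7 were above 0 (median -0.01), namely Msmo1, Lbr and Erg28, with Acat1, Ggps1, Dhdds and Nus1 below. Msmo1 and Lbr were thus above 0 in both comparisons. For the 15 enzymes of the set the median in EGFP over untreated was 0.25, where 53.7% of all genes were above 0. The scatter of 0.27 is that of a single probe set and does not measure the spread of such a median. By brightest probe sets untreated cells had the lowest signal of the 3 arrays for 9 of the 15 enzymes, against 31.3% of all genes measured on the 3 arrays. Median scaling left 10 of 15 enzymes above 0 in EGFP over untreated, with a median of 0.15. It moved the median of all genes there to -0.08. In DGKzeta over EGFP it turned the enzyme median to 0.28, where that of all genes was 0.33. With the arrays scaled over measured probe sets alone the enzyme median was 0.02 and that of all genes 0.08. The direction of DGKzeta over EGFP in the enzymes thus rests on the scaling.

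Of the steps up to squalene, Mvd differed most between EGFP and untreated cells. Mvd, the decarboxylase that makes isopentenyl diphosphate, had signals of 191 in DGKzeta, 283 in EGFP and 159.6 in untreated cells by its brighter probe set and 202 in DGKzeta, 257 in EGFP and 115 in untreated cells by the other. EGFP cells were highest by both, 1.77-fold higher than untreated cells by the first and 2.23-fold higher by the second, and the DGKzeta array lay between. Signals of untreated cells were close to the floor here. The kinases that precede it had the same order of EGFP above the others: Mvk had 263 in DGKzeta, 365 in EGFP and 296 in untreated cells, and Pmvk 279 in DGKzeta, 335 in EGFP and 275 in untreated cells. The other Mvk probe set gave log2 ratios of -0.44 to EGFP and -0.13 to untreated cells in DGKzeta cells, against -0.47 and -0.17 by the first.

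Hmgcs1, which makes HMG-CoA, had 3765 in DGKzeta, 3397 in EGFP and 3483 in untreated cells by its brightest probe set, and log2 ratios of DGKzeta to EGFP between -0.12 and 0.30 over its 4 probe sets. None of these left the scatter of a single probe set. To untreated cells, DGKzeta cells were higher by all 4, with log2 ratios of 0.11, 0.57, 0.64 and 0.33 from the brightest to the dimmest, of which the second and the third were outside the scatter of 0.50. The Hmgcs1 ratios of EGFP over untreated were -0.04, 0.27, 0.40 and 0.45, of which the second was at the edge of the scatter of 0.27 and the dimmer pair outside it. Untreated cells were thus lowest by every Hmgcs1 probe set but the brightest. Idi1, the isomerase that makes dimethylallyl diphosphate, was highest in DGKzeta cells by both probe sets. The brighter had 1919 in DGKzeta, 1802 in EGFP and 1544 in untreated cells, and the other 1360.3 in DGKzeta, 1009 in EGFP and 805 in untreated cells. The log2 ratios of DGKzeta were 0.09 and 0.43 to EGFP and 0.31 and 0.76 to untreated cells. In both comparisons the brighter Idi1 probe set lay inside the scatter of a single probe set and the other outside it. Fdps, farnesyl diphosphate synthase, was lowest in DGKzeta cells, with 2644 in DGKzeta, 3628 in EGFP and 3425 in untreated cells, a log2 ratio to EGFP of -0.46. The other Fdps probe set was under the floor on all 3 arrays.

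Fdft1, squalene synthase, had probe sets that disagreed on DGKzeta over EGFP. The brightest had 2523 in DGKzeta, 1949 in EGFP and 1579.9 in untreated cells, a log2 ratio of 0.37 to EGFP and 0.68 to untreated cells. The next had 1280.4 in DGKzeta, 1497 in EGFP and 1145 in untreated cells, ratios of -0.23 and 0.16. The first carries the suffix _x_at, which Affymetrix gives to probe sets that may bind other transcripts too. Both placed EGFP cells above untreated cells, and 2 more Fdft1 probe sets were under the floor.

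From squalene to cholesterol, Cyp51 and Dhcr7 stood apart. Cyp51, which demethylates lanosterol, had 1323 in DGKzeta, 1121 in EGFP and 745 in untreated cells, so that DGKzeta cells were 1.77-fold higher than untreated cells and EGFP cells were higher by a log2 ratio of 0.59. The next probe set had 694 in DGKzeta, 365 in EGFP and 347 in untreated cells, where the DGKzeta array alone was high, 1.90-fold higher than EGFP. The 2 probe sets thus agreed on DGKzeta over untreated, with log2 ratios of 0.83 and 1.00, and differed on where EGFP cells lay. Dhcr7, the last reductase of the pathway, had 527 in DGKzeta, 914 in EGFP and 548 in untreated cells from its 1 probe set. EGFP cells were high and the other 2 arrays close together, with DGKzeta 1.74-fold lower than EGFP and at a log2 ratio of -0.06 to untreated cells.

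The other enzymes after squalene varied less. Sqle, which makes squalene epoxide, had 2938 in DGKzeta, 3106 in EGFP and 2907 in untreated cells. Nsdhl, a sterol dehydrogenase, had 1969 in DGKzeta, 1983 in EGFP and 1667 in untreated cells, and Ebp, the sterol isomerase, 1228 in DGKzeta, 1384 in EGFP and 1389.9 in untreated cells. All log2 ratios of DGKzeta to EGFP in Sqle, Nsdhl and Ebp were between -0.17 and -0.01. Sc5d, a sterol desaturase, had 837 in DGKzeta, 729.7 in EGFP and 625 in untreated cells. It was highest in DGKzeta cells, by log2 ratios of 0.20 to EGFP and 0.42 to untreated cells, both inside the scatter. Hsd17b7, the ketoreductase of sterol demethylation, stayed close to the floor, with 149 in DGKzeta, 137 in EGFP and 151 in untreated cells. Lss, which closes the rings of lanosterol, had 438 in DGKzeta, 531 in EGFP and 409 in untreated cells by its brightest probe set and 162 in DGKzeta, 132 in EGFP and 82.0 in untreated cells by the next. The 2 Lss probe sets gave opposite log2 ratios of DGKzeta to EGFP, -0.28 and 0.29, both inside the scatter.

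**Figure D2:**
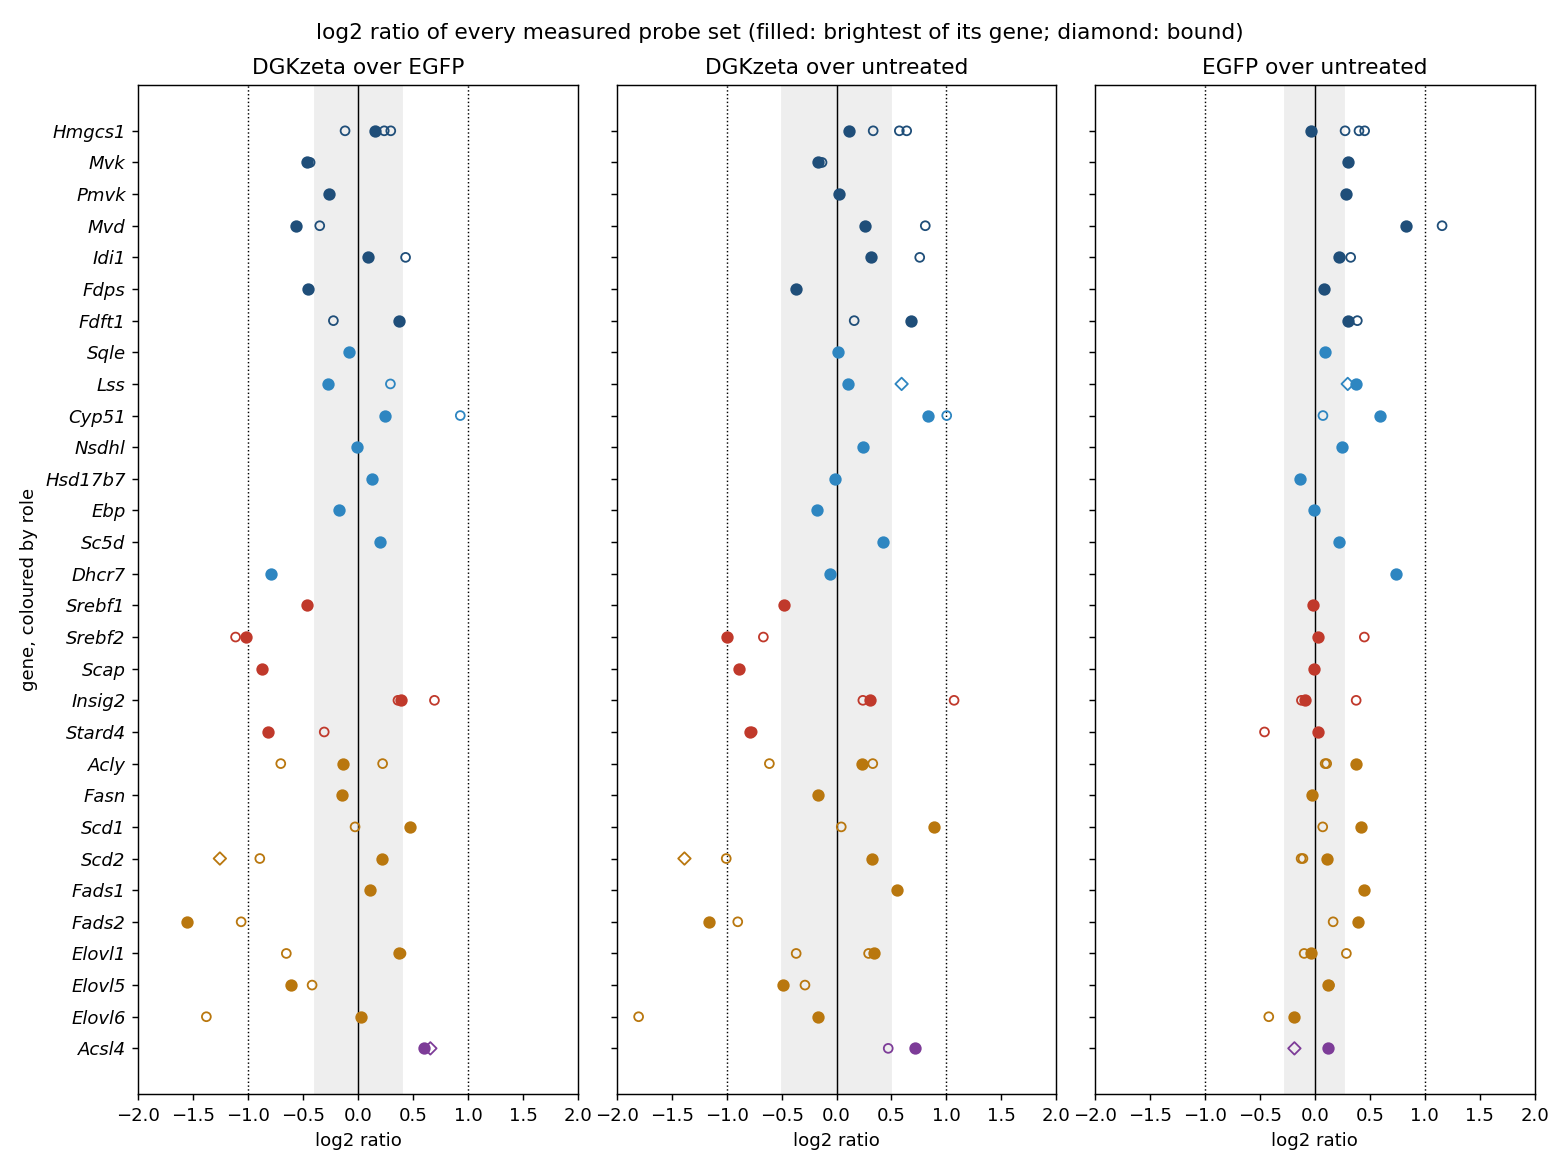
The log2 ratio (x axis) of every measured probe set of each gene for DGKzeta over EGFP (left), DGKzeta over untreated (middle) and EGFP over untreated (right), with the brightest probe set filled, others open, bounds as diamonds, dotted lines at 2-fold, and the scatter of a single probe set (0.40, 0.50 and 0.27) shaded grey; colours mark the roles named above. Srebf2 and Fads2 have both probe sets outside the shading on the left, while those of Scd2 and Elovl6 lie partly inside it.

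Genes of fatty acid synthesis and modification gave no common direction, and Fads2 was the lowest of the 30 genes by brightest probe sets. Fads2, the desaturase that starts the making of long polyunsaturated fatty acids, had 333 in DGKzeta, 979 in EGFP and 745 in untreated cells, which is 2.94-fold lower in DGKzeta than in EGFP cells and 2.24-fold lower than in untreated cells. Its other probe set had 196 in DGKzeta, 411 in EGFP and 366 in untreated cells, 2.09-fold lower in DGKzeta than in EGFP cells. Both probe sets placed DGKzeta cells below both controls, and after median scaling the log2 ratios to EGFP were -1.19 and -0.70. Fads1, the desaturase of the following steps, was not low: it had 1538 in DGKzeta, 1427 in EGFP and 1049 in untreated cells from 1 probe set, with log2 ratios of 0.11 to EGFP and 0.55 to untreated cells.

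Acly, which supplies cytosolic acetyl-CoA from citrate, and Fasn, which makes palmitate, differed little by their brightest probe sets. Fasn had 2424 in DGKzeta, 2684 in EGFP and 2729 in untreated cells and log2 ratios of -0.15 and -0.17. Acly had 3093 in DGKzeta, 3406 in EGFP and 2629 in untreated cells, log2 ratios of -0.14 and 0.23. Its dimmest measured probe set, with 523 in DGKzeta, 852 in EGFP and 798 in untreated cells, gave -0.70 and -0.61, and an _x_at one gave 0.22 and 0.33. The direction of Acly therefore depended on the probe set.

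The stearoyl-CoA desaturases, which place the first double bond in saturated fatty acids, showed the same kind of split. Scd1 had 2261 in DGKzeta, 1634 in EGFP and 1220.5 in untreated cells, 1.85-fold higher in DGKzeta than in untreated cells, but its other probe set had 383 in DGKzeta, 390.4 in EGFP and 372 in untreated cells with no such difference (log2 ratio 0.04). Scd2 had 8788 in DGKzeta, 7557 in EGFP and 7009.6 in untreated cells by its brightest probe set, a log2 ratio of 0.22 to EGFP. The next had 1068 in DGKzeta, 1986 in EGFP and 2141 in untreated cells, a log2 ratio of -0.89. The third, under the floor in DGKzeta cells, had 72.7 in DGKzeta, 256 in EGFP and 279.6 in untreated cells, which is at least 2.39-fold lower than EGFP. In EGFP over untreated the 3 Scd2 probe sets lay between -0.13 and 0.11.

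Of the elongases, which lengthen fatty acids by a carbon pair, Elovl5 was lower in DGKzeta cells by both probe sets. Elovl5, which acts on polyunsaturated substrates, had 1209 in DGKzeta, 1843 in EGFP and 1697 in untreated cells and 1279 in DGKzeta, 1711 in EGFP and 1561 in untreated cells, with log2 ratios to EGFP of -0.61 and -0.42. Median scaling brought these to -0.25 and -0.06. Elovl6, which lengthens palmitate, had 1194 in DGKzeta, 1174 in EGFP and 1340.1 in untreated cells by the brighter probe set and 188 in DGKzeta, 489 in EGFP and 654 in untreated cells by the other. The first gave a log2 ratio to EGFP of 0.02 and the second -1.38, the widest span of any gene of the set at 1.40. Elovl1, an elongase of saturated very long chains, was higher by a pair of _x_at probe sets (0.37 and 0.39 to EGFP) and lower by the third (-0.65), whose signals were 1071 in DGKzeta, 1685 in EGFP and 1381 in untreated cells.

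Acsl4 was the acyl-CoA synthetase gene of the set with a probe set, and was higher in DGKzeta cells. It encodes an acyl-CoA synthetase that prefers arachidonic acid, and had 740.0 in DGKzeta, 489 in EGFP and 451 in untreated cells, 1.51-fold higher in DGKzeta than in EGFP cells and 1.64-fold higher than in untreated cells. The next probe set, near the floor, had 169 in DGKzeta, 105 in EGFP and 122 in untreated cells, and a log2 ratio to untreated cells of 0.47. DGKzeta cells were highest by both, and the remaining probe set was under the floor on all 3 arrays.

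**Figure D3:**
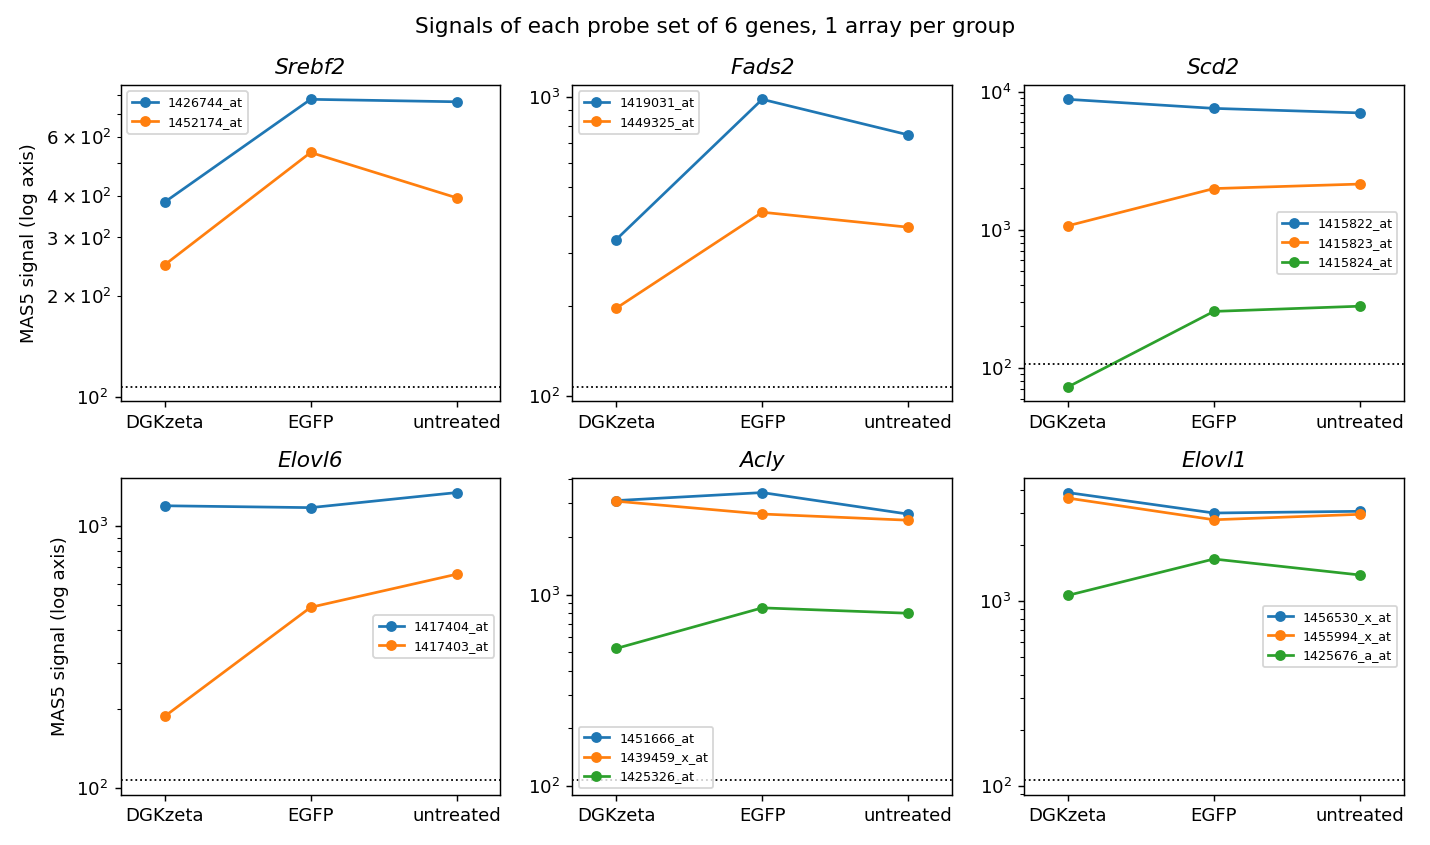
MAS5 signal (log axis) of each probe set measured on at least 1 array for 6 genes, on the DGKzeta, EGFP and untreated arrays from left to right, 1 array each, with the floor of 107 dotted. The probe sets of Srebf2 and of Fads2 all have the DGKzeta array lowest, whereas those of Scd2, Elovl6, Acly and Elovl1 do not.

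The split of calls rests on the scaling of the arrays. At 1.5-fold, DGKzeta over EGFP gave 243 higher and 806 lower genes of all, but 1687 and 264 by median scaling and 449 and 504 by quantile normalization. For the 30 genes median scaling gave 6 higher and 2 lower in place of 1 and 6. In DGKzeta over untreated the same scaling gave 8 higher and 3 lower in place of 4 and 4, where all genes gave 1327 and 308 in place of 487 and 682. Of the 30 genes, 23 kept the sign of DGKzeta over EGFP under all 4 scalings, as did 23 for DGKzeta over untreated and 25 for EGFP over untreated.

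Counted over every measured probe set, 4 of 54 were at least 1.5-fold higher and 13 lower in DGKzeta than in EGFP cells, against 4.27% and 14.0% of 10866 named probe sets on the whole array. Of these, 0 were 2-fold higher and 6 were 2-fold lower, against 0.497% and 4.28%. In DGKzeta over untreated the counts at 1.5-fold were 10 higher and 11 lower, against 7.95% and 14.2% of 10833 probe sets, and at 2-fold 2 higher and 4 lower, against 1.84% and 5.21%. In EGFP over untreated they were 4 higher and 0 lower at 1.5-fold, against 4.46% and 3.00% of 10954, and 1 higher and 0 lower at 2-fold, against 0.447% and 0.785%. Among 16 genes with at least 2 probe sets measured on all 3 arrays, all probe sets had the same sign in 9 for DGKzeta over EGFP, in 13 for DGKzeta over untreated and in 11 for EGFP over untreated. The DGKzeta array was the lowest of the 3 by every such probe set in Elovl5, Fads2, Mvk, Srebf2 and Stard4, and the highest in Cyp51, Idi1 and Insig2.

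**Figure D4:**
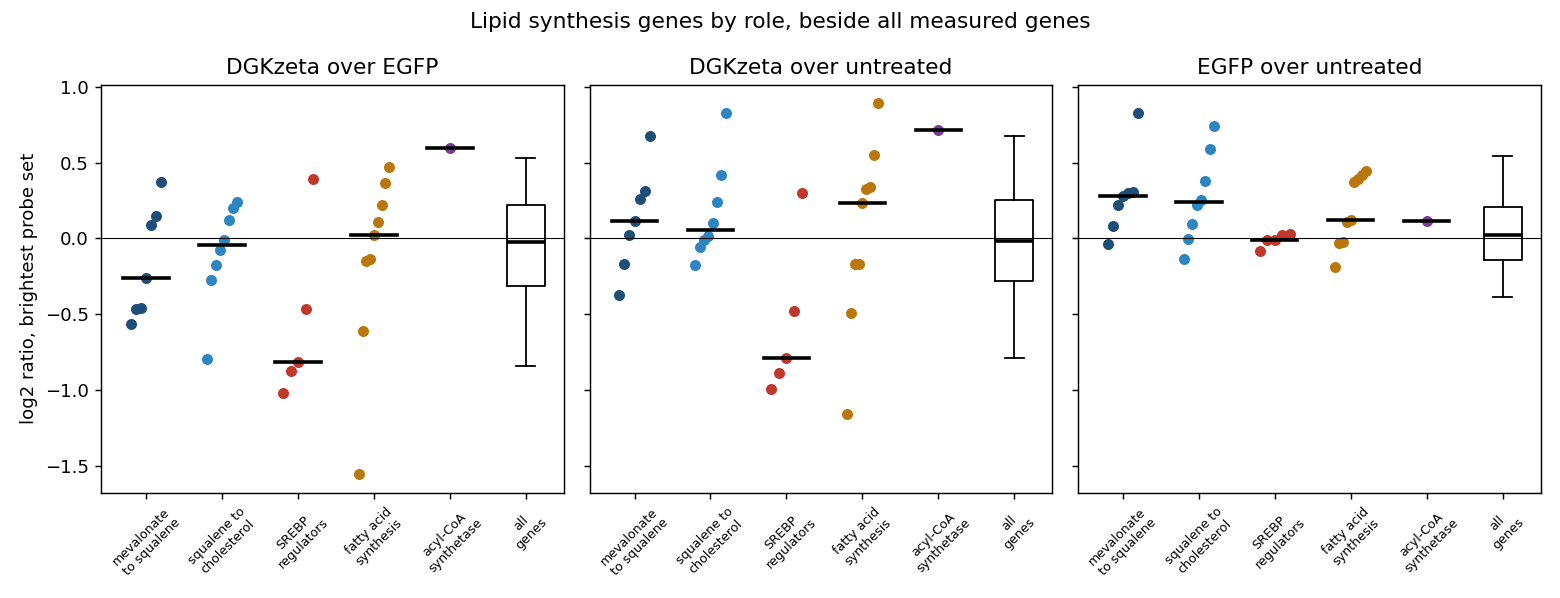
The log2 ratio of the brightest probe set of each gene (points), grouped by role with the median as a bar, beside all measured genes (box from the 25th to the 75th percentile, whiskers from the 5th to the 95th), for DGKzeta over EGFP, DGKzeta over untreated and EGFP over untreated. SREBP regulators with Stard4 have medians of -0.82, -0.79 and -0.01, and both groups of sterol enzymes have medians above that of all genes in EGFP over untreated.

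Other genes of lipid handling were listed by role, 104 in all, of which 84 had a named probe set. Of 63 that were measured, 4 were lower by 2-fold or more in DGKzeta than in EGFP cells and 0 higher, against 2.84% and 0.347% of all genes, and their median was -0.24, against -0.02. In DGKzeta over untreated 0 of 65 were higher and 3 lower, against 1.34% and 2.80% of all genes, with a median of -0.12, against -0.02. In EGFP over untreated 0 of 64 were 2-fold apart, with a median of 0.0020. These counts depend on the settings. In DGKzeta over EGFP median scaling gave 1 higher and 1 lower of 63, where 164 and 51 of 6935 genes were. Leaving out the floor gave 5 higher and 8 lower of 84, where 1051 and 1612 of 12393 genes were. By brightest probe sets, the lowest to EGFP was Ppargc1b, a transcriptional coactivator that also acts with SREBPs, with 179.6 in DGKzeta, 514 in EGFP and 442 in untreated cells. Scarb1, a receptor for high density lipoprotein, had 249.5 in DGKzeta, 593 in EGFP and 583 in untreated cells, but its other probe sets gave log2 ratios to EGFP of 0.26 and 0.07. Lpcat1, an acyltransferase of phospholipids, had 421 in DGKzeta, 941 in EGFP and 1186 in untreated cells, a log2 ratio of -1.16 to EGFP and of -1.49 to untreated cells, the lowest of the list in DGKzeta over untreated. To EGFP its other probe sets gave -2.02 and -0.15. Rxra, the partner of several lipid-sensing receptors, had 168 in DGKzeta, 353 in EGFP and 285 in untreated cells. EGFP and untreated cells differed by less than the scatter of a single probe set in Ppargc1b and Scarb1, and by more in Rxra and Lpcat1.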

How the data were processed

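Total RNA of C2C12 cells (3 samples, 1 array each) was biotin-labelled with the one-cycle kit of Affymetrix, per the labels' protocols. The authors deposited linear intensities, 1 per probe set, computed with MAS5 per the submitters' processing notes. Its version and scaling target, detection calls and the genome build are not stated in those sources. The trimmed means of the arrays were nearly equal, and no further scaling was applied. Of 22690 probe sets, 20380 had 1 gene symbol in the platform annotation, and probe sets with several symbols or none were not named. A gene was represented by its brightest probe set, by mean log2 over the arrays, and every probe set of the 30 genes is also described.

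With 1 array per group no test was run, and differences are described by a fold of 1.5 or 2 on floored values, beside the share of all genes past the same fold. The number of arrays limits the precision. Full signals were to be given for genes at least 1.5-fold apart in any comparison and for the SREBP regulators, and the remaining members are given too. Neighbouring genes were named when 2-fold apart. The members, lists and rules were chosen with earlier results of these data known. The counting of folds was checked on simulated data with less noise than the scatter of a single probe set and with changes in bright genes only. That checks the counting and not the calls made here. Alternatives were 3 scalings, a floor at the 25th or at the 75th percentile or none, a pseudocount at the 10th percentile (3.17) in its place, the mean over probe sets, leaving out _x_at and _s_at probe sets, second-brightest probe sets, and members measured on all 3 arrays. Promoter sequences are from RefSeq. Python 3.11.15, numpy 2.4.6, pandas 2.3.3 and matplotlib 3.10.9 were used.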

Additional observations from a re-analysis of the deposited data

How the results depend on the processing

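No paired analysis was possible because each group has 1 array, and for the same reason no array could be left out. The median of the 30 genes moved by less than the scatter of a single probe set under every alternative. That scatter is of 1 ratio and not of a median. A lower floor or none could not move the median, since the 30 brightest probe sets were measured on all arrays. Scaling to a common median adds the same amount to each of their ratios. The median lay between -0.27 and 0.25 for DGKzeta over EGFP, between 0.0043 and 0.32 for DGKzeta over untreated and between 0.02 and 0.17 for EGFP over untreated. Its sign turned for DGKzeta over EGFP, from -0.11 as deposited to 0.25 by the common median of all named probe sets. In the counts that follow, brackets hold the numbers higher and lower out of all genes. The count of genes at least 2-fold apart in DGKzeta over EGFP was 2 as deposited (24 and 197 of 6926). It was 1 by quantile normalization (51 and 106 of 6935), 1 by scaling to a common median of all named probe sets (164 and 51 of 6935) and 1 by that of measured ones (42 and 142 of 6922). It was 0 with the floor at the 75th percentile (7 and 24 of 3892) and 3 with second-brightest probe sets (10 and 131 of 2258), which 16 genes have. In DGKzeta over untreated, 1 as deposited (92 and 192 of 6866), it was 2 by the common median of all named probe sets (253 and 96 of 6931). It was 0 with the floor at the 75th percentile (31 and 52 of 3874) and 3 with second-brightest probe sets (52 and 155 of 2258). In EGFP over untreated, 0 as deposited (25 and 21 of 6932), it was 1 without _x_at and _s_at probe sets (26 and 24 of 6674) and 1 with second-brightest ones (9 and 15 of 2258). At 1.5-fold the floor at the 75th percentile gave 4 in place of 7 for DGKzeta over EGFP (110 and 185 of 3892) and 4 in place of 8 for DGKzeta over untreated (226 and 203 of 3874). Of the 30 genes, 24 and 23 were above that floor. Second-brightest probe sets gave 1 in place of 3 for EGFP over untreated (100 and 75 of 2258). The floor at the 75th percentile is 562, and the DGKzeta signals of Srebf2 and Fads2 were raised to it. This brought their log2 ratios to EGFP to -0.47 and -0.80. Fewer genes were also counted with that floor and with second-brightest probe sets. Other causes of the changes were not tested. Of 838 values of single genes recomputed under 10 alternatives, 802 moved by less than the scatter, 36 moved by more and 0 of those at least 1.5-fold apart changed sign. The floor at the 25th percentile, no floor, the pseudocount and both common medians each left 90 of 90 values inside the scatter. These settings could hardly do otherwise, as the signals lay above the floor or every ratio shifted alike by less than the scatter. Of the 36, 18 came from second-brightest probe sets, where 48 values were recomputed. Signals of Mvd, Hsd17b7 and the dimmer probe sets of Lss and Acsl4 lie close to the floor, which limits their ratios.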
